A study of Homo sapiens with 10 samples.

Results

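The genes described here are the aryl hydrocarbon receptor gene AHR, its partner ARNT, the feedback genes AHRR and TIPARP, and the cytochrome P450 genes CYP1A1 and CYP1B1. They were taken from a deposited count table by matching Ensembl gene IDs to these 6 symbols, which selects 6 of 57736 genes. All 6 passed the filter on low counts, although CYP1A1 reached the filter's 0.4 CPM (counts per 1000000 of the library's scaled total) in 4 of 10 libraries and AHRR in 7 of 10.

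AHR is a transcription factor that waits in the cytoplasm, held by a chaperone complex, until it binds a planar aromatic compound or a tryptophan metabolite. It then enters the nucleus, pairs with ARNT and binds DNA sites whose core reads GCGTG. CYP1A1 and CYP1B1, which oxidise polycyclic aromatic hydrocarbons such as those of tobacco smoke, are its classic targets in the airway, and AHRR and TIPARP are targets that in turn repress the receptor.

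RNA was sequenced from 3 human lung cancer cell lines that differ in their p53 missense mutation. V157F is carried by NCI-H2087, R158L by NCI-H441 and R158P by the third line, NCI-H2110. Each line was compared after an siRNA against p53 and after a control siRNA, with 2 libraries per arm in NCI-H2087 and NCI-H441 and 1 library per arm, labelled replicate 2, in NCI-H2110. The sample titles call the p53 siRNA libraries knockouts, while the protocol and the experiment field give an siRNA. All groups were transfected, the labels name no AHR ligand, and with 1 line per mutation the line and the mutation cannot be told apart. No separate cultures are recorded for the replicates, so p-values measure the spread between these libraries, which may be technical.

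The libraries held 18336672 to 25810934 counts. All 5 epithelial markers (EPCAM, CDH1, KRT8, KRT18 and KRT19) were detected in every group, and their summed level was 8822 to 8914 CPM with p53 siRNA and 3694 to 4035 CPM with control siRNA in NCI-H2087, 5657 to 6693 and 4166 to 4413 CPM in NCI-H441, and 2458 and 2367 CPM in NCI-H2110. In NCI-H2087 4 of these 5 were called higher with p53 siRNA, where 4.98% of all genes tested were called higher. With p53 siRNA in NCI-H2087 the 8 alveolar type 2 markers summed to 243 to 418 CPM, with SFTPC at 0. With control siRNA they summed to 1084 to 1184 CPM there. In that line 4 of the 8 were called lower, where 3.69% of all genes tested were called lower. The 8 markers summed to 1146 to 2586 and 970 to 2298 CPM in NCI-H441, and to 35.3 and 65.7 CPM in NCI-H2110. In NCI-H2110 the club and goblet markers summed to 1283 CPM with p53 siRNA and 1173 CPM with control siRNA. Nearly all of this was MUC5AC (515 and 516.8 CPM) and MUC5B (752.5 and 637.4 CPM). The club markers SCGB1A1 and SCGB3A2 reached at most 0.13 CPM there. The 4 basal markers summed to 143 and 78.6 CPM in that line, with KRT5 at 0. The 4 fibroblast markers summed to 49.2 and 38.8 CPM there, mostly COL1A1. The 4 liver markers summed to 0.905 CPM or less in every library, and of the 4 immune and endothelial markers PTPRC and CD3E stayed at or near 0 and CDH5 averaged at most 1.13 CPM in any group. The fourth, CD68, a lysosomal protein of macrophages that other cells can also express, averaged 309.8 CPM with p53 siRNA and 123.5 CPM with control siRNA in NCI-H2087 (1.33 ± 0.31 log2, edgeR adjusted p = 0.0312), 68.9 and 55.3 CPM in NCI-H441, and 28.1 and 14.8 CPM in NCI-H2110. The part that the marker shifts in NCI-H2087 have in the results below was not tested.

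Promoter sequences from RefSeq (build GRCh38.p14), each covering 250 bases before to 50 bases after an annotated start, were found for 5 of the 6 genes, all but CYP1B1, in 8 windows. The letters GCGTG, the AHR and ARNT core, were searched on both strands. They occurred in 5 of these 8 windows and in 12832 of all 35116 windows (36.5%). The longer TNGCGTG, of which GCGTG is a part, occurred in 1 of the 8 and in 1935 of all windows (5.51%). The matches are shown because the core is the sequence that joins the receptor to its targets, with 27 bases each, 5′ to 3′ and the core in capitals.
CYP1A1, 57 bases before the start, chr15:74725570-74725596, minus strand: cagggaaggagGCGTGgccacacgtac
AHRR, 30 bases before the start, chr5:321673-321699, plus strand: gcgggcggctcGCGTGccggggtgggg
AHRR, second window, 247 bases before the start, chr5:322360-322386, plus strand: ggcGCGTGacaggcaggggccaccctc
AHRR, second window, 42 bases before the start, chr5:322557-322583, plus strand: cagaagggtggGCGTGtgcgcgcgttc
TIPARP, 208 bases before the start, chr3:156674371-156674397, minus strand: cccgcgaggggGCGTGtcctttctcgc
TIPARP, 142 bases before the start, chr3:156674437-156674463, minus strand: cccctgcgcgcGCGTGcgcgttcgttc
AHR, 37 bases after the start, chr7:17298675-17298701, plus strand: gctctgttccgagaGCGTGccccggac
The CYP1A1, AHRR and AHR matches lie on the gene's own strand, and both TIPARP matches lie on the opposite strand. The AHRR match at 30 bases is the only one of the 7 that extends to TNGCGTG. The ARNT window and the other 2 TIPARP windows held no match, which says only that these letters are not in those windows. The presence of the core is a description of the sequence and not a binding site.

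Across the 6 genes, the P450 enzymes and the repressor AHRR had lower counts with p53 siRNA in NCI-H2087, while AHR and ARNT passed no test in any comparison with p53 siRNA. By edgeR's quasi-likelihood test with Benjamini-Hochberg adjustment over 17978 genes, CYP1A1, CYP1B1 and AHRR fell in NCI-H2087 and the other 3 genes were not called. This is 3 of 6 genes called, all lower, where 8.68% of all genes tested were called and 3.69% were called lower. The 6 were chosen with earlier results of these data known, so these shares are only a description. In NCI-H2087 neither CYP1A1 nor AHRR reached the filter's 0.4 CPM with p53 siRNA. CYP1A1 reached it only in the controls of that line and in the NCI-H2110 pair. AHRR reached it in NCI-H2087 only in control replicate 2, and in every library of NCI-H441 and NCI-H2110. In bulk RNA, fewer cells that express a gene and less of its RNA per cell cannot be told apart. None of the 6 was called in NCI-H441, where 0.00556% of all genes were called, although CYP1B1 had an unadjusted p below 0.05 there and was called lower by DESeq2 (adjusted p = 0.00486), which called 0.167% of all genes there. DESeq2 gave no adjusted p for 2 of the 6 in that line. In NCI-H2110 there is no test, and CYP1A1 alone among the 6 differed by over 2-fold, where 1.49% of 12385 genes with at least 50 counts did so.

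**Figure D1:**
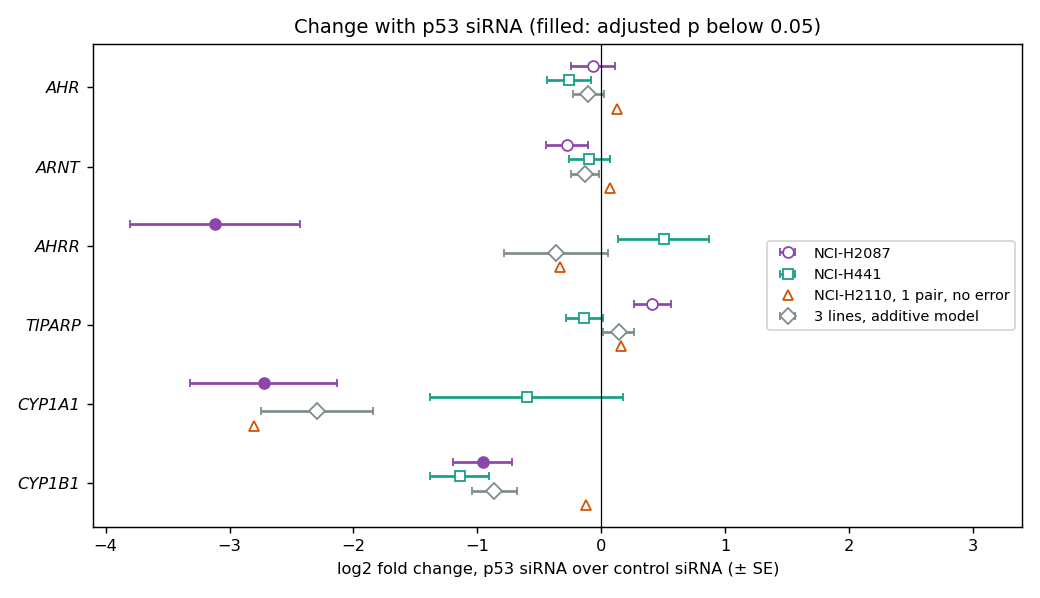
Log2 fold change of p53 siRNA over control siRNA (x axis) for each of the 6 genes (y axis). Circles stand for NCI-H2087 and squares for NCI-H441, with bars of 1 SE, diamonds stand for the additive model over 3 lines, and triangles stand for the single NCI-H2110 pair, which has no error. Filled symbols have an adjusted p below 0.05, and these are AHRR, CYP1A1 and CYP1B1 in NCI-H2087.

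AHR itself was abundant in all 3 lines. In NCI-H2087 it stood at 390.0 and 320.4 CPM with p53 siRNA, against 347 and 397 CPM with control siRNA, and the arms overlapped. The fitted change was −0.07 ± 0.17 log2 (SE, n = 2 per arm, edgeR adjusted p = 0.863), and its sign turned positive without p53 siRNA replicate 2 (0.07) or control replicate 2 (0.05). In NCI-H441 it stood at 257 and 205 CPM with p53 siRNA, against 269 and 284 CPM with control siRNA (−0.26 ± 0.17 log2, adjusted p = 0.933). Both p53 siRNA libraries lay under both controls there, a separation that 17% of all genes showed in this direction. In NCI-H2110 AHR reached 1088 CPM with p53 siRNA, against 995 CPM with control siRNA, on 25100 and 25282 counts. Annotated exons of AHR overlap those of an antisense transcript that held 4 to 35 counts. They also overlap a protein-coding entry on the same strand that has no row in the counts.

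ARNT encodes the dimerisation partner through which AHR, and also the hypoxia factors, contact DNA. Its levels were 34.2 and 34.2 CPM with p53 siRNA in NCI-H2087, against 38.0 and 44.8 CPM with control siRNA. The arms did not overlap, as for 30.4% of all genes in this direction, and the change of −0.28 ± 0.17 log2 did not pass the test (adjusted p = 0.345). NCI-H441 had 42.2 and 48.7 CPM with p53 siRNA, against 50.9 and 46.3 CPM with control siRNA, which overlap (−0.10 ± 0.17 log2, adjusted p = 0.974). In NCI-H2110 the pair was 98.4 CPM with p53 siRNA and 93.7 CPM with control siRNA. The ratio of those counts, scaled by library size, had a 95% interval of 0.991 to 1.11, for counting error only.

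AHRR encodes a receptor-like protein that competes for ARNT and represses AHR targets. It was at the edge of detection in NCI-H2087, with 1 and 1 counts in the p53 siRNA libraries, against 6 and 13 counts with control siRNA. These counts equal 0.0427 and 0.0423 CPM, against 0.309 and 0.490 CPM. AHRR was called lower (edgeR adjusted p = 0.0233), with a fitted change of −3.12 ± 0.69 log2 whose size depends on how 1 count is smoothed. The summed counts give a ratio of 0.103 with an exact 95% interval of 0.0116 to 0.426, which covers counting error only. The call was lost when any single NCI-H2087 library was left out, with adjusted p of 0.0645 to 0.191.

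In NCI-H441 AHRR had 31 and 29 counts with p53 siRNA, against 15 and 29 with control siRNA. In CPM the p53 siRNA libraries, at 1.27 and 1.19, lay above the controls at 0.644 and 1.07 (17% of all genes did), and the change of 0.50 ± 0.37 log2 was not called (adjusted p = 0.933). In NCI-H2110 the gene was higher in level than in the other lines, at 269 counts (11.7 CPM) with p53 siRNA and 373 counts (14.7 CPM) with control siRNA, a log2 ratio of −0.33. Annotated exons of AHRR overlap those of PDCD6, a gene on the same strand with 1232 to 5707 counts per library, so reads of AHRR could be split with it and its values are uncertain.

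TIPARP encodes an ADP-ribosyltransferase of the PARP family that modifies AHR and dampens its activity. In NCI-H2087 it had 529 and 503 CPM with p53 siRNA, against 381 and 394 CPM with control siRNA, so the arms did not overlap, as for 25.4% of all genes in this direction. The change of 0.41 ± 0.15 log2 was not called (edgeR adjusted p = 0.117). With the replicate number as a block it was called (0.41 ± 0.13, adjusted p = 0.0295), in a model that called 25.4% of all genes and 12.8% higher. Under library totals alone the change was 0.24 log2. In NCI-H441 the levels were 237 and 241 CPM with p53 siRNA, against 242 and 284 CPM with control siRNA (−0.14 ± 0.15, adjusted p = 0.946). In NCI-H2110 they were 71.9 CPM with p53 siRNA and 64.5 CPM with control siRNA. TIPARP was thus the 1 member with a positive fitted change in NCI-H2087, while AHRR was the 1 member with a positive fitted change in NCI-H441.

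CYP1A1, the most strongly inducible enzyme of the pathway, was low in NCI-H2087 and NCI-H441. Its counts in NCI-H2087 were 7 and 3 with p53 siRNA, against 27 and 39 with control siRNA. These equal 0.299 and 0.127 CPM, against 1.39 and 1.47 CPM. The NCI-H441 controls, at 0.300 and 0.148 CPM, were near the p53 siRNA level of NCI-H2087. CYP1A1 fell by 2.72 on the log2 scale (SE 0.59, n = 2 per arm, edgeR adjusted p = 0.0225), a fitted 6.60-fold difference. The ratio of the summed counts, 10 against 66, was 0.148 with an exact 95% interval of 0.0678 to 0.289, for counting error only. The call held without p53 siRNA replicate 1 (adjusted p = 0.0413). It was lost without p53 siRNA replicate 2, control replicate 1 or control replicate 2 of that line, with adjusted p of 0.114, 0.0921 and 0.131.

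NCI-H2110 had the highest CYP1A1 of the 3 lines, and there the p53 siRNA library was lower by a similar factor. It held 52 counts with p53 siRNA (exact 95% Poisson interval 38.8 to 68.2), against 413 with control siRNA (374 to 455). In CPM these are 2.25 and 16.3, a log2 ratio of −2.81 or 6.99-fold, with a counting interval of the ratio of 0.102 to 0.185. Among NCI-H2110 genes with at least 50 counts, 0.589% were more than 2-fold lower. This single pair has no replicate. In NCI-H441 CYP1A1 was too scarce for a comparison, with 1 and 6 counts with p53 siRNA, against 7 and 4 with control siRNA. The summed ratio of 0.656 had an interval of 0.216 to 1.85, so a difference was not detectable at this depth (edgeR −0.60 ± 0.78 log2, adjusted p = 0.963), and the fitted value turned positive (0.15) without p53 siRNA replicate 1. Each NCI-H441 library lies below the controls of NCI-H2087.

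CYP1B1, the extrahepatic P450 that hydroxylates estradiol and activates aromatic procarcinogens, was far more abundant. Its p53 siRNA libraries lay below the controls in every line. The reported fit called this in NCI-H2087 and not in NCI-H441. In NCI-H2110 the difference was 1.09-fold in 1 pair without a test. NCI-H2087 had 18.1 and 17.5 CPM with p53 siRNA, against 36.6 and 32.5 CPM with control siRNA. The fall was 0.96 ± 0.24 log2 or 1.94-fold (edgeR adjusted p = 0.0388), and each of the 4 NCI-H2087 libraries left out ended the call, with adjusted p of 0.106 to 0.181. NCI-H441 had 84.3 and 54.9 CPM with p53 siRNA, against 181 and 127 CPM with control siRNA, with 1341 to 4207 counts per library. The change was −1.14 ± 0.23 log2, 2.21-fold lower, with an unadjusted p of 0.000719 and an adjusted p of 0.696, so it was not called. With the replicate block it was called (−1.15 ± 0.13, adjusted p = 0.00102), in a model that called 0.417% of all genes and 0.145% lower.

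In NCI-H2110 CYP1B1 stood at 596 CPM with p53 siRNA and 648 CPM with control siRNA, on 13756 and 16460 counts. The log2 ratio was −0.12, with a counting interval of 0.900 to 0.941 for the ratio. CYP1B1 was the only member whose p53 siRNA libraries lay under the controls in all 3 lines, a pattern that 3.37% of all tested genes showed. Genes whose exons overlap CYP1B1 held at most 85 counts for RMDN2, 66 for RMDN2-AS1 and 48 for CYP1B1-AS1. Whether the counting used strand is not stated.

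**Figure D2:**
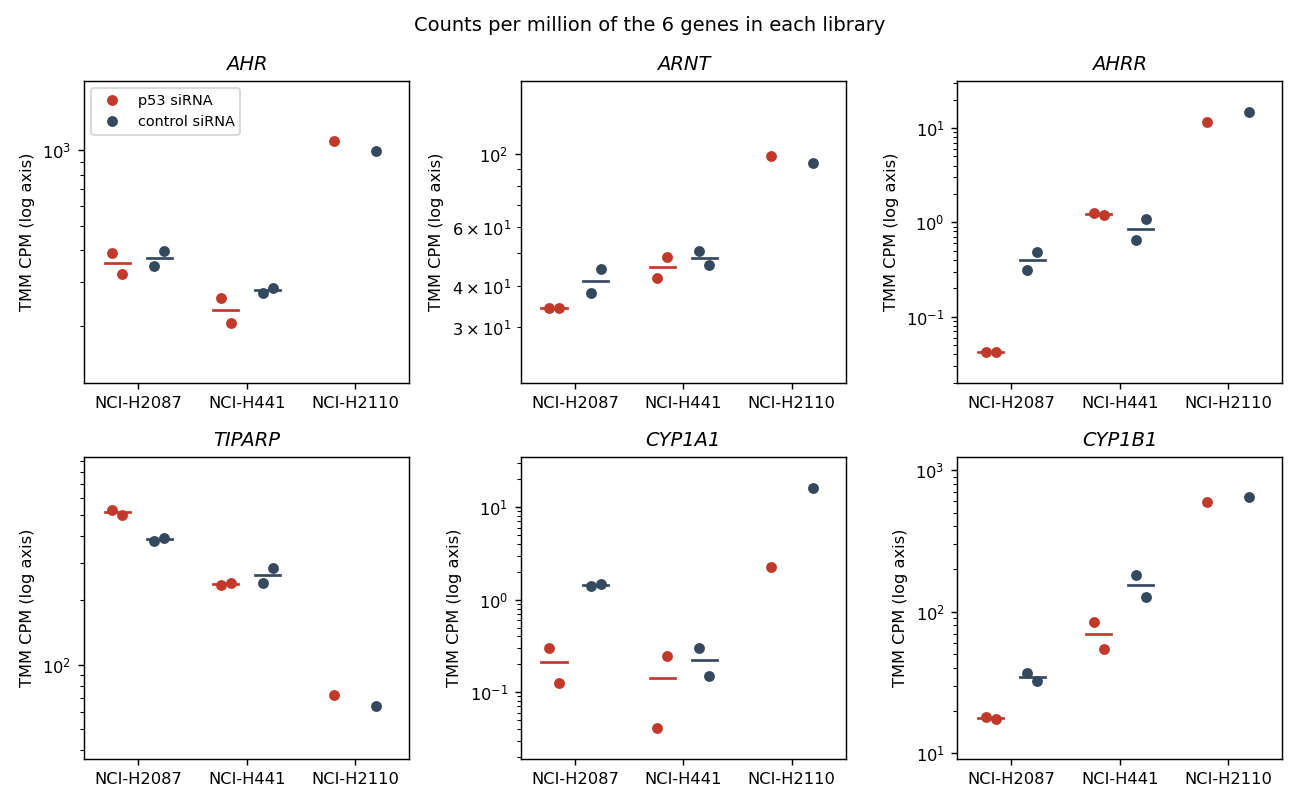
Level of each gene in every library in CPM on a log axis, by line, with p53 siRNA left of control siRNA in each line. Each point is 1 library and horizontal lines are the means of 2 libraries. The CYP1B1 points are lower with p53 siRNA in all 3 lines, by 1.09-fold in the single NCI-H2110 pair. CYP1A1 is lower in NCI-H2087 and NCI-H2110, and AHRR is lower in NCI-H2087 but not in NCI-H441.

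**Figure D3:**
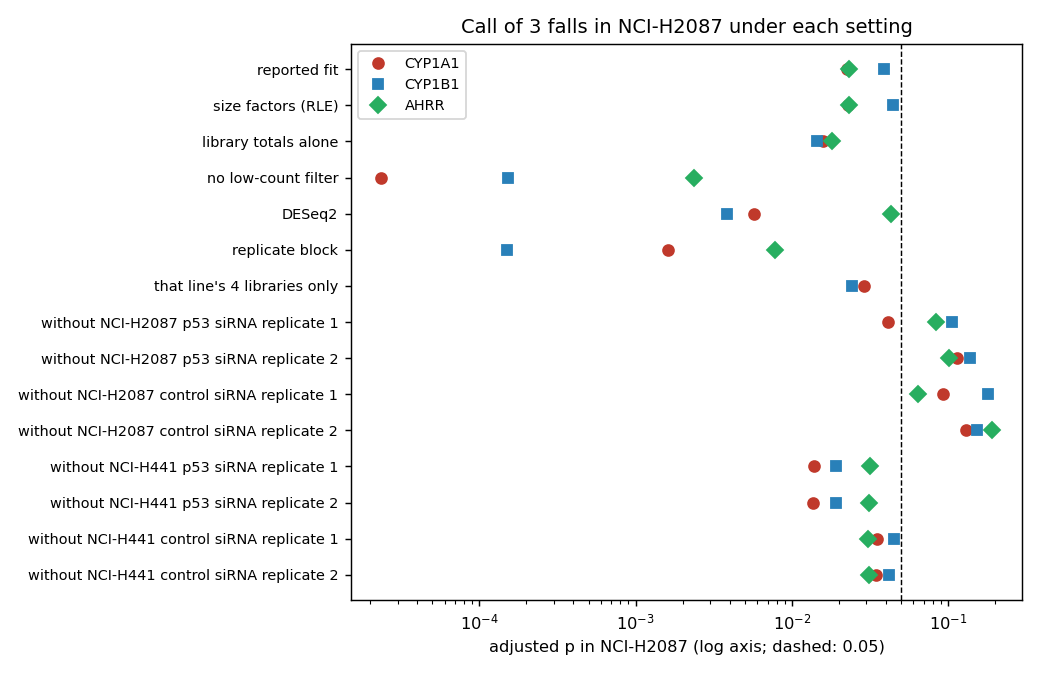
Adjusted p of CYP1A1, CYP1B1 and AHRR in NCI-H2087 (x axis, log scale, dashed line at 0.05) for the reported fit and each alternative setting (y axis), where each point is 1 fit. Points right of the line, up to 0.191, occur only where an NCI-H2087 library was left out, and AHRR has no point for that line's 4 libraries alone.

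The change shared by the 3 lines was fitted as 1 siRNA effect beside a separate level for each line, and 0.395% of all genes were called in that model with or without the replicate block. None of the 6 was called by edgeR, while 2 had an unadjusted p below 0.05 (14.2% of all genes did) and DESeq2 called those 2, with 3.39% of all genes called. CYP1A1 changed by −2.29 ± 0.45 log2 (adjusted p = 0.055; 0.00139 by DESeq2). CYP1B1 changed by −0.86 ± 0.18 log2 (adjusted p = 0.0713; 0.00231 by DESeq2). CYP1A1 was called without NCI-H441 p53 siRNA replicate 2 (−2.75, adjusted p = 0.0175) or NCI-H441 control replicate 2 (−2.44, adjusted p = 0.0444). CYP1B1 was called when the NCI-H2110 pair was left out, a setting added after the data were seen (−1.06 ± 0.17, adjusted p = 0.0383). The other members had common changes of −0.36 ± 0.42 for AHRR, −0.13 ± 0.11 for ARNT, −0.10 ± 0.12 for AHR and 0.14 ± 0.13 for TIPARP.

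The changes in NCI-H2087 and NCI-H441 were compared directly through an interaction term, where 0.412% of all genes were called and none of the 6, with 2 at an unadjusted p below 0.05 (13.2% of all genes). DESeq2 also called none of the 6, with 2.65% of all genes called. AHRR differed by −3.62 ± 0.78 log2 (NCI-H2087 change minus NCI-H441 change, adjusted p = 0.0935), and with the replicate block this was called (−3.61 ± 0.84, adjusted p = 0.0151; 8.92% of all genes were called there, 4.26% lower). TIPARP differed by 0.55 ± 0.21 log2 (adjusted p = 0.310). CYP1A1 differed by −2.12 ± 1.03 log2 (adjusted p = 0.414), an estimate that rests on 1 to 7 counts per NCI-H441 library. For CYP1B1, called in NCI-H2087 and not in NCI-H441, the difference was 0.18 ± 0.33 log2 (adjusted p = 0.873), and its sign turned without NCI-H441 p53 siRNA replicate 2 (−0.09) or control replicate 1 (−0.06). AHR differed by 0.19 ± 0.25 and ARNT by −0.18 ± 0.24 log2.

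The control libraries of NCI-H2087 and NCI-H441 were also compared. By edgeR 3 of the 6 genes were called, a share near that of all genes, of which 42.1% were called, 22% higher and 20.1% lower in NCI-H2087. CYP1A1 was higher in NCI-H2087, at 1.43 ± 0.0551 CPM, against 0.224 ± 0.108 CPM in NCI-H441 (SD, n = 2 each; 2.67 ± 0.58 log2, adjusted p = 0.00508). CYP1B1 was lower in NCI-H2087, at 34.6 ± 2.89 CPM, against 154 ± 38.1 CPM in NCI-H441 (−2.15 ± 0.24 log2, adjusted p = 0.000104). The 2 P450 genes thus stood in opposite order in these lines. TIPARP was higher in NCI-H2087, at 388 ± 8.62 CPM, against 263 ± 29.5 CPM in NCI-H441 (0.56 ± 0.15 log2, adjusted p = 0.0134). That call was lost without control replicate 1 (adjusted p = 0.0643) or 2 (0.0918) of NCI-H2087, or control replicate 1 of NCI-H441 (0.128). AHR, at 372 ± 35.0 against 277 ± 9.98 CPM (adjusted p = 0.0753), AHRR (adjusted p = 0.0637) and ARNT (adjusted p = 0.303) were not called.

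NCI-H2110 stood apart from both in the level of every member, although with 1 control library this has no test. Its control library exceeded the mean control of NCI-H2087 by 2.67-fold for AHR, 2.26-fold for ARNT, 11.4-fold for CYP1A1, 18.7-fold for CYP1B1 and 36.7-fold for AHRR. Against the mean control of NCI-H441 the ratios were 3.60 for AHR, 1.93 for ARNT, 72.5 for CYP1A1, 4.22 for CYP1B1 and 17.1 for AHRR. The CYP1A1 ratio rests on 7 and 4 counts in the NCI-H441 controls and was 54.1 against control replicate 1 alone and 109.9 against control replicate 2 alone. TIPARP went the other way, at 0.167 of the NCI-H2087 level and 0.245 of the NCI-H441 level. The 2 NCI-H2110 libraries lay outside the range of the other 8 for every member, p53 siRNA included.

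Levels of different genes were compared as CPM per kilobase of annotated exon, a scale that assumes reads along the whole transcript, which the labels do not state for this kit. On that scale TIPARP led in the control libraries of NCI-H2087, at 76.8 ± 1.71, followed by AHR at 46.0 ± 4.33. ARNT (6.36 ± 0.740) and CYP1B1 (5.75 ± 0.480) came next and did not differ beyond their spread, and CYP1A1 (0.417) and AHRR (0.0521) closed the order. In the controls of NCI-H441 the order was TIPARP (52.1 ± 5.84), AHR (34.2 ± 1.24), CYP1B1 (25.5 ± 6.33) and ARNT (7.45 ± 0.498), with AHRR (0.112 ± 0.0395) and CYP1A1 (0.0653 ± 0.0314) last and not separated beyond their spread. In the NCI-H2110 control library AHR (123) and CYP1B1 (108) led, ARNT (14.4) and TIPARP (12.8) followed, and CYP1A1 (4.73) stood above AHRR (1.91). After p53 siRNA the last 2 changed places in NCI-H2110, at 0.656 for CYP1A1 and 1.52 for AHRR.

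**Figure D4:**
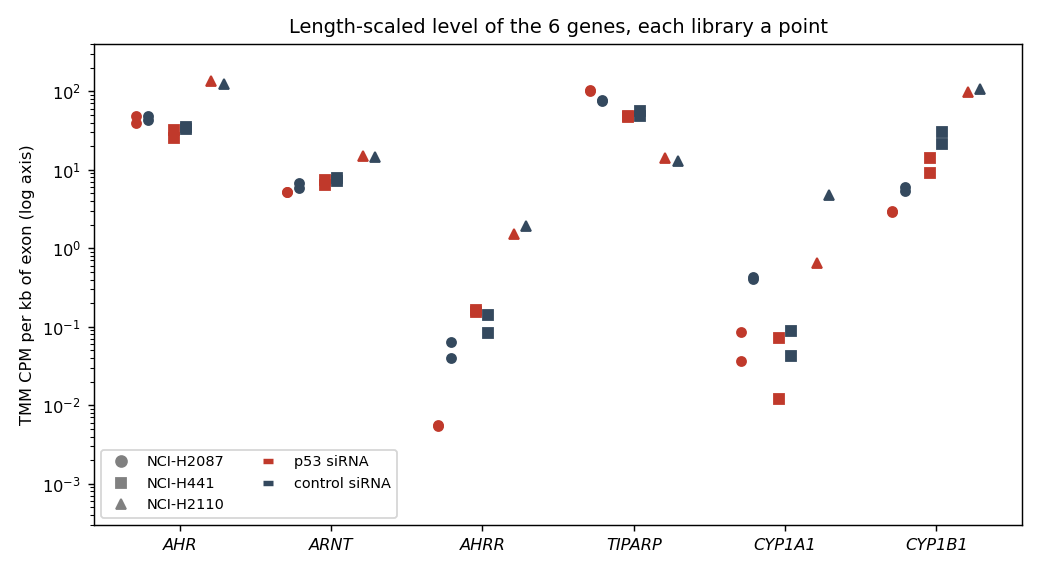
CPM per kilobase of exon (y axis, log scale) for the 6 genes (x axis). Points are libraries, with the shape giving the line and the colour giving p53 siRNA or control siRNA. TIPARP and AHR are the highest in NCI-H2087 and NCI-H441, and AHR and CYP1B1 are the highest in NCI-H2110.

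For each member, the 3 genes with the most similar profile were found among 11109 genes by the root-mean-square difference of centred log2 CPM over the 10 libraries. These profiles are dominated by differences among the 3 lines, which the libraries share, so the likeness is a description. AHR lay closest to KCTD6 (0.10), FOCAD (0.16) and APOO (0.17), against its own SD of 0.81 log2 over the libraries. TIPARP lay closest to FAM216A (0.13), PRR34-AS1 (0.15) and the ribosomal protein gene RPS25 (0.17), against an SD of 1.06. ARNT lay closest to a gene listed only by its Ensembl ID (0.11), CDC42SE1 (0.12) and the iron transporter gene SLC11A2 (0.12), against an SD of 0.54. CYP1B1, with an SD of 1.88, was matched less closely by GRAMD2A (0.39), CORO2A (0.44) and CMPK2 (0.49). AHRR, with an SD of 2.33, came nearest to HHIPL2 (0.54), MIR9-1HG (0.57) and NR4A2 (0.63). CYP1A1, with an SD of 2.13, had no near match, and its nearest were the growth factor gene EGF (0.91), ADGRD1 (0.91) and HSPA2 (0.92).

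Around these 6 genes, 66 other genes of the pathway were followed in lists, and 54 of them were tested. The lists held chaperones, related factors and coactivators, coregulators, other receptor targets, enzymes of tryptophan metabolism, and other xenobiotic enzymes. In NCI-H2087 6 of the 54 were called higher and 6 lower, where 4.98% of all genes were called higher and 3.69% lower. The median change of the 54 was −0.18 log2, against −0.03 for all genes. CYP1A2 and IL1B among the targets, SIM1 among the relatives and IDO1 among the tryptophan enzymes had 0 counts in NCI-H2087. They could not be called there, and they entered the medians as 0. The replicate block called 9 higher and 14 lower, where it called 12.8% of all genes higher and 12.6% lower. DESeq2 called 6 higher and 9 lower, where it called 11.9% of all genes, 7.2% higher and 4.66% lower. Of the 9 tested xenobiotic enzymes 4 were called lower by edgeR and the other 5 were not called, with a list median of −0.95 log2. The lower ones included CYB5A, the cytochrome b5 that passes electrons to P450 enzymes, at 33.3 and 24.6 CPM with p53 siRNA, against 126 and 143 CPM with control siRNA (−2.21 ± 0.27, edgeR adjusted p = 0.00237). EPHX1, the epoxide hydrolase that acts on P450 products, was at 88.5 and 93.2 CPM, against 180.2 and 257 CPM (−1.27 ± 0.21, adjusted p = 0.00714). CYP4F3, a leukotriene hydroxylase, fell by 1.87 ± 0.44 log2 (adjusted p = 0.0291).

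Of 15 tested receptor targets outside the member list, 3 were higher in NCI-H2087 and none was lower by edgeR, with a median of −0.03 log2. The 15 include CYP1A2 and IL1B, which had 0 counts in this line and could not be called. At an unadjusted p below 0.05 there were 8 of either direction, where 25.3% of all genes passed that mark. The drug efflux pump gene ABCG2 had 39.7 and 45.9 CPM with p53 siRNA, against 17.8 and 17.3 CPM with control siRNA (1.29 ± 0.17, adjusted p = 0.00293). EREG, an EGF receptor ligand, had 749.9 and 667 CPM, against 396 and 351 CPM (0.92 ± 0.16, adjusted p = 0.0101). So ABCG2 and EREG were called in the opposite direction to the P450 members in the same libraries. Of the 15 targets 5 had a positive fitted change, and CYP1A2 and IL1B stood at 0. Among all 17978 genes tested, 8157 had a positive fitted change. ALDH3A1 (−1.13 ± 0.34, edgeR adjusted p = 0.0714) and UGT1A1 (−0.88 ± 0.32, adjusted p = 0.126) were lower without a call. Both were called with the replicate block (adjusted p = 0.000691 and 0.0205), which called 12.6% of all genes lower. The block also called ABCG2, EREG and HES1 higher (adjusted p = 3.26e-05, 0.000102 and 0.000134), where it called 12.8% of all genes higher. SLC7A5 was higher (0.76 ± 0.34, edgeR adjusted p = 0.197) and IL6 lower (−0.68 ± 0.29, adjusted p = 0.179), both without a call. With the block IL6 was called (adjusted p = 0.00725) and SLC7A5 was not (0.0665). NQO1, a quinone reductase controlled by AHR and by NRF2, had 539.9 and 600.0 CPM with p53 siRNA, against 735 and 915 CPM with control siRNA (−0.53 ± 0.16, adjusted p = 0.0676), and it was called with the replicate block (adjusted p = 0.00646). CYP1A2, the hepatic sister enzyme, had 0 counts in all 4 NCI-H2087 libraries and at most 0.444 CPM in any library.

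Among the 11 tested relatives of AHR and ARNT and their coactivators, 2 were higher in NCI-H2087 and none lower, with a median of −0.07 log2 and 4 at an unadjusted p below 0.05 (25.3% of all genes). CLOCK, a circadian factor of the same bHLH-PAS family, had 96.9 and 80.3 CPM with p53 siRNA, against 41.9 and 35.0 CPM with control siRNA (1.21 ± 0.17, adjusted p = 0.00392). HIF1A, the hypoxia factor that shares ARNT as its partner, had 2089 and 1952 CPM, against 1171 and 1244 CPM (0.74 ± 0.15, adjusted p = 0.0152). Of 6 tested tryptophan enzymes, KYNU, the kynureninase, was the 1 called, with 117 and 102 counts with p53 siRNA, against 208 and 252 with control siRNA (−1.12 ± 0.23, adjusted p = 0.0169). The 5 tested chaperone genes included 1 called higher and none lower, with a median of 0.55 log2, and the 8 coregulators included 1 called lower and none higher, with a median of −0.33 log2.

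**Figure D5:**
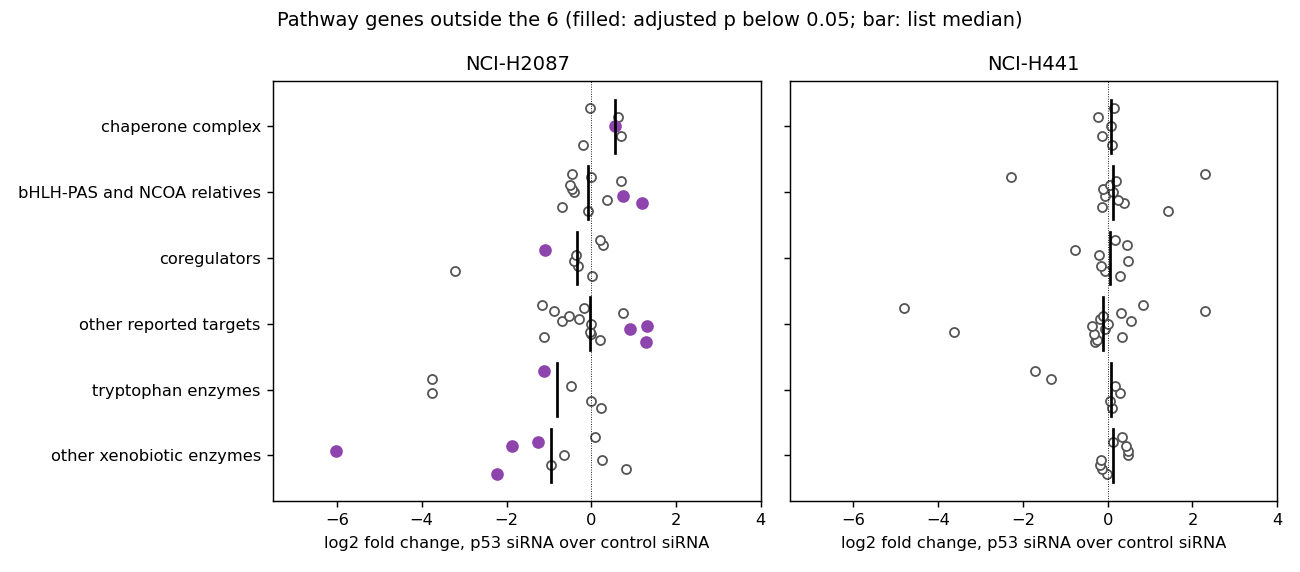
Log2 fold change with p53 siRNA (x axis) of the tested pathway genes by list (y axis), in NCI-H2087 on the left and NCI-H441 on the right. Points are genes, filled where the adjusted p is below 0.05, and vertical bars are list medians. NCI-H2087 has 6 filled points higher and 6 lower, NCI-H441 has none, and the point farthest to the left, CYP4B1, rests on libraries with 0 counts, so its position depends on the smoothing of counts.

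In NCI-H441 none of the 54 was called by edgeR or by DESeq2, which gave no adjusted p for 16 of them, and 7 had an unadjusted p below 0.05 (4.43% of all genes did), with a median of 0.05 log2. The smallest p-values included those of ARNT2, an ARNT paralog (1.41 ± 0.45), RB1, the retinoblastoma protein that binds AHR (−0.78 ± 0.26), and RELA (0.45 ± 0.17), each with an adjusted p of 0.933. The change differed between NCI-H2087 and NCI-H441 for ABCG2 (1.59 ± 0.24, adjusted p = 0.033) and CYB5A (−2.19 ± 0.37, adjusted p = 0.0455), and missed the threshold for EPHX1 (−1.39 ± 0.29, adjusted p = 0.0887) and EREG (0.98 ± 0.23, adjusted p = 0.12). The replicate block called 7 differences higher and 6 lower, where it called 4.66% of all genes higher and 4.26% lower. In the additive model CLOCK was called higher by edgeR (0.84 ± 0.15, adjusted p = 0.0421; 0.339% of all genes were called higher) and no gene of the lists was called with the block, while RB1 (−0.72 ± 0.21), KYNU (−0.78 ± 0.23) and EREG (0.58 ± 0.19) missed the threshold with adjusted p of 0.148, 0.167 and 0.199. In NCI-H2110, EREG (1603 against 795 counts, 1.15 log2) and CYP2S1, a P450 that AHR ligands induce (720 against 1813 counts, −1.19 log2), were the 2 of 44 listed genes past 2-fold, where 0.904% of all genes were higher and 0.589% lower by that margin.

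Between the control libraries of NCI-H2087 and NCI-H441, 10 of the 54 listed genes were called higher and 18 lower in NCI-H2087, with a median of −0.48 log2, where 22% of all genes were called higher and 20.1% lower. Of the 15 other receptor targets 5 were higher and 6 lower. ALDH3A1, an aldehyde dehydrogenase of the AHR gene battery, had 34.3 and 40.9 CPM in NCI-H2087, against 0.172 and 0 CPM in NCI-H441. UGT1A6 had 19.1 and 19.0 CPM, against 0.300 and 0 CPM, and UGT1A1 had 4.07 and 3.24 CPM, against 0 counts in both NCI-H441 controls. These glucuronosyltransferase genes share exons, so their separate values are uncertain. KYNU had 208 and 252 counts, against 2 and 2, CYP2S1 had 63 and 81 counts, against 1 and 2, and SIM2, a bHLH-PAS repressor, had 34 and 53 counts, against 0 and 0. ALDH1A3 (−2.53 ± 0.21 log2) and the Notch target HES1 (−3.27 ± 0.33 log2) were lower in NCI-H2087. The adjusted p of these 8 genes was 5.75e-05 or less.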

How the data were processed

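RNA-seq counts per gene were deposited by the authors as 1 table for 10 libraries, as whole numbers without normalization. Per the submitters' processing notes, Bowtie2, RSEM 1.2.12 and the hg19 build were used, in roles not given, and whether the counts are rounded RSEM estimates is not stated. The strand of counting is not given in the sources used here. RNA came from cells transfected with the siRNAs, per the labels.

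Differences were tested with edgeR 4.0.16 in R 4.3.3. A filter by group left 17978 genes with 99.96% of the counts, and TMM scaled the library sizes. The 10 libraries were fitted with 1 mean per line and siRNA (4 residual degrees of freedom), or with 1 siRNA effect added to the line means (6 residual degrees). Tests were two-sided and adjusted over all genes tested, with calls at an adjusted p below 0.05. Simulated counts with known changes were read back for the NCI-H2087 change only, not for the additive model or the other comparisons. They used the same spread for all genes. NCI-H2110 was compared as a log2 ratio of CPM with a prior count of 2. Intervals cover counting error only.

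Same-numbered libraries deviated together (r = 0.534 in NCI-H2087 and 0.595 in NCI-H441 over 9332 genes), so the replicate number was also fitted as a block. Alternatives were DESeq2 1.42.0, other scalings, no filter, own-line libraries, the block and leaving out each library. Exon lengths, overlaps and fallback names came from GENCODE 29. The 6 genes are described whatever their values, and listed genes were named by smallest p, up to 8 called per comparison, or 4 where fewer than 4 were called. In NCI-H2087 NQO1, CYP1A2, ALDH3A1, UGT1A1, SLC7A5 and IL6 were named outside this rule. The members and lists were chosen with earlier results of these data known. The transcript targeted by the siRNA and 1 gene that the naming rule selects are not reported here.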

Additional observations from a re-analysis of the deposited data

Results flagged for a closer look

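AHRR had fitted changes of opposite sign in the 2 replicated lines. Every p53 siRNA library lay below every control in NCI-H2087, as for 30.4% of all genes, and above every control in NCI-H441, as for 17% of all genes. The NCI-H441 change was not called (0.50 ± 0.37 log2, edgeR adjusted p = 0.933). The difference of the changes, NCI-H2087 minus NCI-H441, was −3.62 log2, and its interaction test by edgeR gave an adjusted p of 0.0935. In NCI-H2087 it rests on 2 counts summed over the p53 siRNA libraries, against 19 over the controls.

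TIPARP also had fitted changes of opposite sign, and edgeR called neither (0.41 ± 0.15 log2, adjusted p = 0.117 in NCI-H2087; −0.14 ± 0.15 log2, adjusted p = 0.946 in NCI-H441). Its p53 siRNA libraries lay above the controls in NCI-H2087, as for 25.4% of all genes, and below them in NCI-H441, as for 17%, where the nearest pair was 241.2 CPM with p53 siRNA and 242.2 CPM with control siRNA. The difference of 0.55 log2 had an adjusted p of 0.310 by edgeR, and of 0.0793 with the replicate block.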

How the results depend on the processing

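Of the alternative values computed, 421 were classed as unchanged. These are member values that kept their direction and side of the threshold, with NCI-H2110 ratios and numbers of genes called, which have no such side. The 31 classed as moved were all numbers of genes called. Among member values, 16 passed the threshold newly, 14 lost it and 6 changed sign. Leaving out 1 library gave −3.37 to −2.71 log2 for AHRR, −3.45 to −2.24 for CYP1A1 and −1.03 to −0.86 for CYP1B1 in NCI-H2087, and 0.43 to 0.70 for TIPARP between the control groups. It changed the sign, in each case of an uncalled value, of AHR in NCI-H2087 (−0.22 to 0.069), of ARNT (lowest value −0.20, highest 0.0051) and CYP1A1 (−2.29 to 0.15) in NCI-H441, and of the CYP1B1 difference between lines (−0.0932 to 0.53).

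The number of genes called was 177 to 1810 in NCI-H2087 when 1 library was left out (641 without p53 siRNA replicate 2, 358 without control replicate 1 and 177 without control replicate 2), 0 to 2 in NCI-H441, 0 to 92 for the difference, 2 to 117 for the common change and 4713 to 7840 between the control groups. At a count of 0, edgeR had 491 or 679 genes at an unadjusted p below 0.05 in NCI-H441 and 1349 to 2076 for the difference. Without the filter 2700, 69, 810 and 1123 genes were called in NCI-H2087, NCI-H441, the difference and the common change. DESeq2 called 30 in NCI-H441, 476 for the difference and 609 for the common change. The replicate block called 4571, 75 and 1604 in NCI-H2087, NCI-H441 and the difference, and lost the call of no member. NCI-H441's own 4 libraries gave 0, with 596 at an unadjusted p below 0.05. The cause was not tested.

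Without the filter, CYP1B1 in NCI-H441 (adjusted p = 1.64e-05), CYP1A1 (1.52e-07) and CYP1B1 (1.68e-06) in the common change and the AHRR difference (0.00563) were called, and DESeq2 called TIPARP in NCI-H2087 (0.0439). With library totals as the only scaling, the median of all genes in NCI-H2087 stood at −0.21 log2, against −0.03 by TMM, and the calls were 638 higher and 1285 lower, against 896 and 664. CYP1B1 (−1.13), CYP1A1 (−2.90) and AHRR (−3.28) stayed called lower there, and CYP1B1 was called in the common change (adjusted p = 0.0497). AHRR could not be fitted in NCI-H2087's 4 libraries alone, nor CYP1A1 in NCI-H441's, since neither passed the filter there. Without NCI-H441 control replicate 1, AHRR was called lower in NCI-H2087 controls (adjusted p = 0.0469). Depth limits AHRR and CYP1A1, and 2 libraries per arm limit every test.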

Other observations

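The other 4 listed pathway genes called in NCI-H2087 fall outside the naming rule and were named after their values were seen. HSP90AB1, a chaperone that holds AHR in the cytoplasm, had 2630 and 2407 CPM with p53 siRNA, against 1796 and 1650.0 CPM with control siRNA (0.55 ± 0.14 log2, edgeR adjusted p = 0.0452). HES1 had 19.0 and 22.5 CPM, against 9.69 and 6.97 CPM (1.32 ± 0.32, adjusted p = 0.0333). RB1 had 48.1 and 34.1 CPM, against 98.8 and 77.8 CPM (−1.10 ± 0.26, adjusted p = 0.0316). CYP4B1, a P450 of the lung, had 0 and 0 counts with p53 siRNA, against 8 and 7 with control siRNA (adjusted p = 0.0454). In NCI-H441 CYP4B1 had 41 and 21 counts with p53 siRNA, against 30 and 15 with control siRNA.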
